A study of Mus musculus with 6 samples.

Results

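Wnt signalling in the leukemic bone marrow was described here through 55 genes of 22180 measured, the ligands, receptors, antagonists and feedback targets of the pathway. They were chosen by symbol: every gene called Wnt, Fzd, Sfrp, Dkk or Rspo followed by a digit, plus 14 genes named singly, of which 13 were measured. Tcf7 is not analysed here. The members were 19 Wnt ligands, 4 R-spondins, 10 Frizzled receptors, the coreceptors Lrp5 and Lrp6, 3 LGR receptors, 10 secreted antagonists, 5 feedback inhibitors, the transcription factor Lef1 and Fzd10os, a non-coding RNA at the Fzd10 locus that the symbol rule also took in. RNA was taken from sorted osteoblastic cells of mouse bone marrow, called stromal cells in the sample titles, and hybridised to 1 Affymetrix array per sample. There were 3 arrays from mice with acute myeloid leukemia (AML) and 3 from mice with chronic myeloid leukemia (CML); samples from mice without leukemia were not analysed here. All 6 samples carried the Col2.3 GFP genotype, in which a piece of the Col1a1 promoter drives a fluorescent reporter that marks cells of the bone-forming lineage. The leukemia of each array was taken from its title, since the source names give CML for all 6. Age and the way the leukemias were made are not given in the sources used here. Nothing in the labels says that replicates came from separate mice, so the p-values speak only to variation among the 6 samples, part or all of which may be technical.

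Wnt proteins bind a Frizzled receptor together with Lrp5 or Lrp6, and the signal keeps beta-catenin from being degraded, so that it can activate genes with LEF1 and TCF factors in the nucleus. R-spondins bind LGR receptors and draw the ubiquitin ligases RNF43 and ZNRF3 away from the Frizzled receptors, which strengthens the signal. Secreted SFRP, DKK and WIF1 proteins and the cytoplasmic AXIN2, NKD1 and NKD2 dampen it. In bone the pathway is known to promote osteoblast formation, and loss or gain of function of LRP5 alters bone mass.

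None of the 55 members passed the threshold in limma, a Benjamini-Hochberg adjusted p under 0.05 over all genes, in either direction, against 1.91% of all genes. By direction, 1.83% of all genes were called higher in AML and 0.0812% lower. The lowest adjusted p among them was 0.0700, for Sfrp5. At an unadjusted p under 0.05, 12 members were lower in AML, against 8.99% of all genes, and 1, Sfrp4, was higher, against 12.6% of all genes. Both directions together made 13 members, against 21.5% of all genes. By value, 50 of the 55 were lower in AML, against 61.7% of all genes, and 5 were higher, against 38.3%. The count of lower members was 43 to 46 under 4 other scalings of the arrays, against 42.4% to 53.8% of all genes. The median log2 change of the members, AML minus CML, was -0.29 as deposited, against -0.11 over all genes. Over the scalings the median of all genes ran from -0.11 as deposited to 0.06 after centring on the receptor genes described below, and the members' median minus that of all genes stayed between -0.18 and -0.14. The 3 AML values lay below all 3 CML values for 16 members, or 29.1%, against 17.9% of all genes and 23.1% of the receptor genes. As deposited, they lay above them for Sfrp4 alone, against 13.3% of all genes and 1.08% of the receptor genes. The 17 without overlap compare with 31.3% of all genes in both directions. After quantile normalization, median centring and cyclic loess alike, the AML values lay above the CML values for Frzb, Fzd4 and Rnf43, against 10.9% of all genes. An absolute log2 change of at least 1 was seen for Lef1 alone, against 7.64% of all genes.

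Most members were dim. No detection call was used here, so each value was set beside the 95th percentile of 1390 olfactory and vomeronasal receptor genes on the same array, called the receptor level below. Probe sets differ in brightness at equal RNA, so a value under this level is no proof of absence. Of the 55 members, 34 were under the receptor level on all 6 arrays, or 61.8%, against 43.4% of all genes. Only Axin2, Dkk3, Fzd5, Lrp5, Lrp6, Rspo1, Sfrp4, Wif1 and Wnt9b were above it on all 6, or 16.4%, against 33.4% of all genes. The receptor level itself was lower in AML, from 4.35 to 4.55 log2 units on the AML arrays and from 4.70 to 5.10 on the CML arrays. The 1390 receptor genes had a median log2 change of -0.16, and 83.5% of them were lower in AML by value. Of the 16 members whose AML values all lay below the CML values, 14 were under the receptor level on all 6 arrays. When each array was centred on the median of the receptor genes, a choice made with the data in view, the median log2 change of the members was -0.12, against 0.06 over all genes. The AML values all lay below the CML values for 6 members at that setting, against 5.41% of all genes.

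Markers of cell types also differed by value between the arrays. The mean log2 value of 8 measured osteoblast markers was 6.46, 7.45 and 5.87 on AML 1, 2 and 3, and 7.54, 6.55 and 9.29 on CML 1, 2 and 3. All 8 were lower in AML by value and none passed. Of 8 mesenchymal reticular markers 6 were higher in AML by value and 2 lower, and none passed. Their mean ran from 4.26 to 5.11 on the AML arrays and from 4.28 to 4.83 on the CML arrays. The mean of 7 pan-leukocyte markers ran from 8.53 to 9.33 on the AML arrays and from 6.30 to 8.01 on the CML arrays, and 2 of the 7, Vav1 and Ptpn6, were called higher in AML. All of the 7 were higher in AML by value. Vav1 and Ptpn6 passed under 1 of 3 other scalings, and with 1 array left out in 1 and 3 of 6 fits. Of 10 myeloid markers 5 were called higher in AML: Elane under all 3 other scalings too, Mpo and Prtn3 under 2, and Ctsg and Cd68 under 1. Of 6 stem and progenitor markers 4 were called higher in AML, and the list's mean ran from 6.33 to 6.72 on the AML arrays and from 4.18 to 4.64 on the CML arrays. In bulk RNA, fewer cells of a type and less RNA per cell cannot be told apart. The part of these cells in the values below was not tested.

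**Figure D1:**
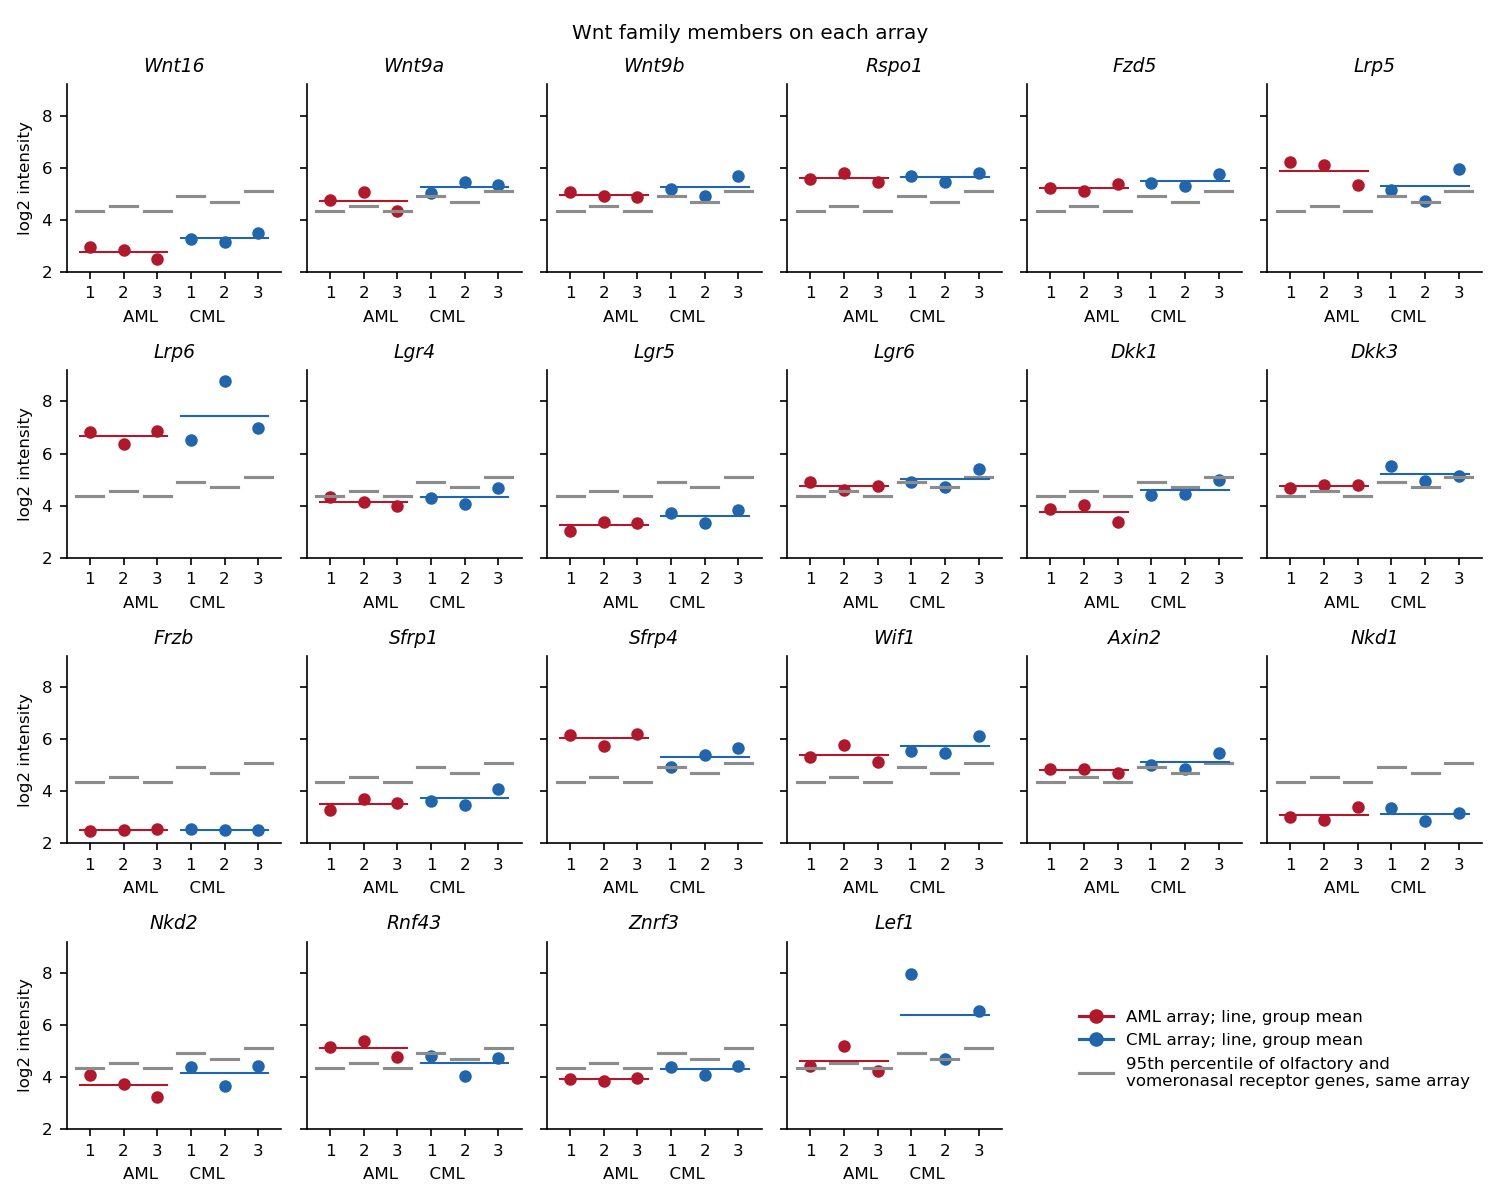
Log2 intensity (y axis) of 22 members on each of the 3 AML arrays (red, left) and the 3 CML arrays (blue, right) of each panel; coloured lines are group means and grey bars the receptor level of the same array. Lef1 is high on CML 1 and CML 3 and Lrp6 on CML 2, while Wnt16, Lgr5, Frzb and Nkd1 lie under the grey bars on every array.

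The Wnt ligands were all lower in AML by value as deposited, and none passed. Wnt2b and Wnt4 were higher by value under each of the 4 other scalings, and Wnt10a and Wnt5a under 2 of them each. Their log2 changes ran from -0.63 for Wnt11 to -0.03 for Wnt2b, with a median of -0.32, and limma adjusted p-values ran from 0.111 to 0.927. Of the 19, 10 were under the receptor level on all 6 arrays, among them Wnt5a, a ligand of the beta-catenin-independent branch, and Wnt10b, known for promoting bone formation. Wnt9b (probe set 17270576, chromosome 11) was above it on all 6, at 5.05, 4.93 and 4.89 on AML 1, 2 and 3 and at 5.17, 4.90 and 5.67 on CML 1, 2 and 3. The groups overlapped, and CML 3 was the highest array.

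Wnt9a, a ligand known from joint and cartilage development, had log2 values of 4.75, 5.08 and 4.33 on the AML arrays and 5.03, 5.44 and 5.32 on the CML arrays. AML 2 lay above CML 1, so the groups overlapped, and the log2 change of -0.54 ± 0.23 (SE, n = 3 each) did not pass (limma adjusted p = 0.229). Wnt16, which is known to protect cortical bone, was at 2.95, 2.83 and 2.49 in AML and at 3.27, 3.16 and 3.51 in CML. Its groups did not overlap, but every value was under the receptor level, and the change of -0.56 ± 0.18 (SE) did not pass (limma adjusted p = 0.162).

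Wnt11, a ligand of the beta-catenin-independent branch, is given in full because it had the lowest unadjusted p of the ligands, and so was picked after its values were seen. Its log2 values were 4.04, 4.09 and 3.69 on the AML arrays and 4.63, 4.64 and 4.44 on the CML arrays. The groups did not overlap, and all 6 values were under the receptor level. The log2 change was -0.63 ± 0.16 (SE, 95% interval -1.02 to -0.24), with a limma adjusted p of 0.111. Among the 16 members with no overlap, 6 kept it after quantile normalization, median centring and cyclic loess alike: Dkk1, Dkk3, Sfrp5, Wnt11, Wnt16 and Wnt2, against 5.52% of all genes. Of these, 5 also kept it after centring on the receptor genes, against 4.46% of all genes, Wnt16 being the exception.

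Dkk1, Lef1 and Wnt11 are also members with letters of the TCF and LEF recognition motif near a start site. The search covered AACAAAG or ATCAAAG or TACAAAG or TTCAAAG on both strands in RefSeq windows of 300 bases, 250 before and 50 after an annotated start, on build GRCm38.p6. Windows were found for 36 of the 55 members. Of their 43 windows 6 held the motif, or 14.0%, against 16.9% of all 32851 windows. The 6 belonged to Dkk1, Fzd7, Lef1, Wnt11, Wnt3 and Wnt5b. As deposited the groups of Fzd7, Lef1, Wnt3 and Wnt5b overlapped, and Fzd7 was higher in AML by value. The 3 windows below were chosen for holding the motif in members that had the largest log2 change (Lef1) or groups that did not overlap under any scaling tried (Dkk1, Wnt11). Dkk3, Sfrp5 and Wnt2 also had such groups, and the windows of Sfrp5 and Wnt2 did not hold these letters. Each reads 5′ to 3′ along the gene's strand with the motif letters in capitals, and such a match is no evidence of binding. The coordinates are chr19:30549447-30549746 on the minus strand for Dkk1, chr7:98834862-98835161 on the plus strand for Wnt11, which is 1 of 2 annotated windows, and chr3:131156044-131156343 on the plus strand for Lef1, the last being 1 of 4 annotated windows of that gene. No pair of motif matches overlapped in these windows.
Dkk1: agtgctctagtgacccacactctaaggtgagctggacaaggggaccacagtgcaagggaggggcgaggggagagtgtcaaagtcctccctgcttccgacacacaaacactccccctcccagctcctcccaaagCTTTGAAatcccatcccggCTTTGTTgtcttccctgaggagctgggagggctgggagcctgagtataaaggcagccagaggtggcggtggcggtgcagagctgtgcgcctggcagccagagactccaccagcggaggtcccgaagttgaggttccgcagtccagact
Wnt11: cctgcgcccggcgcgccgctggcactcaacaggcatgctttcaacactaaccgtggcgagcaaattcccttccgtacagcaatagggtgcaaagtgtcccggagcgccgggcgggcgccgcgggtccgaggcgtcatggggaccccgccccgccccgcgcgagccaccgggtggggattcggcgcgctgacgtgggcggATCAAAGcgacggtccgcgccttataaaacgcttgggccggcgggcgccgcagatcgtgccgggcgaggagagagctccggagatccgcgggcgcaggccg
Lef1: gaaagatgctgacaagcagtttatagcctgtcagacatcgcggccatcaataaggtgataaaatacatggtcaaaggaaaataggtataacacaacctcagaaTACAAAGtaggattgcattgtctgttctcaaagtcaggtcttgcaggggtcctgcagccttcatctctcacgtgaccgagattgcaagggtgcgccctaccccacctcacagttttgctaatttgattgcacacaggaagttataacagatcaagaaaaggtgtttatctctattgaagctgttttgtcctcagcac

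None of the 4 R-spondins passed, and their groups overlapped. Rspo1 (probe set 17418403, chromosome 4) was the R-spondin above the receptor level on all 6 arrays. Its log2 values were 5.55, 5.81 and 5.46 in AML and 5.70, 5.44 and 5.80 in CML, which interleave. The log2 change of -0.04 had a 95% interval from -0.44 to 0.36 (limma adjusted p = 0.890). Rspo2, Rspo3 and Rspo4 stood at -0.34, -0.25 and -0.23, and Rspo2 and Rspo3 were under the receptor level on every array.

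Of the 10 Frizzled receptors 9 were under the receptor level on all 6 arrays, and none passed. The exception was Fzd5 (probe set 17223793, chromosome 1), at 5.22, 5.12 and 5.37 in AML and at 5.40, 5.29 and 5.74 in CML. Its groups overlapped and its log2 change was -0.25 ± 0.17 (SE; limma adjusted p = 0.396). The receptors' changes ran from -0.66 for Fzd9 to 0.14 for Fzd7, and Fzd4 and Fzd7 were the receptors higher in AML by value. Fzd6, Fzd9 and Fzd10 had groups that did not overlap, lower in AML, all at dim values. The non-coding RNA Fzd10os, which lies antisense to Fzd10, was at -0.48 (limma adjusted p = 0.149), also under the receptor level throughout, and whether its probe set separates it from Fzd10 was not tested.

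The coreceptors moved in opposite directions by value and neither passed. Lrp5 (probe set 17360977, chromosome 19), the coreceptor whose mutations alter bone mass, was at 6.22, 6.11 and 5.34 in AML and at 5.16, 4.72 and 5.97 in CML. AML 1 and AML 2 were the highest arrays, while CML 3 lay above AML 3. The log2 change was 0.61 ± 0.38 (SE, 95% interval -0.29 to 1.51; limma adjusted p = 0.356). It was 0.33 without CML 2 and 0.95 without CML 3.

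Lrp6 (probe set 17471995, chromosome 6) stood apart on 1 array. It was at 6.82, 6.35 and 6.87 in AML and at 6.52, 8.77 and 6.99 in CML, so that CML 2 lay above the other 5 arrays, which overlapped. The other probe set of Lrp6 showed the same array high, at 5.91, 5.80 and 5.81 in AML and at 6.06, 7.69 and 5.86 in CML. The log2 change was -0.74 ± 0.56 (SE; limma adjusted p = 0.431), and without CML 2 it was -0.07. CML 2 had the lowest mean of the pan-leukocyte markers, 6.30, and the highest mean of 3 measured erythroid markers, 9.25. On AML 3 the erythroid mean was 8.57 with Lrp6 at 6.87, and on CML 3 it was 8.75 with Lrp6 at 6.99. The erythroid mean ran from 5.01 to 8.57 over the AML arrays and from 7.64 to 9.25 over the CML arrays. Slc4a1, the anion exchanger of red cells, was at 4.89, 8.68 and 10.26 in AML and at 9.83, 11.16 and 10.75 in CML. The part of erythroid RNA in the Lrp6 value was not tested.

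The LGR receptors of the R-spondins were lower in AML by value as deposited, at -0.19 for Lgr4, -0.37 for Lgr5 and -0.25 for Lgr6, with limma adjusted p-values of 0.572, 0.299 and 0.467. Lgr4 was at 4.33, 4.14 and 3.99 in AML and at 4.29, 4.05 and 4.69 in CML, and Lgr5, a stem cell marker of several epithelia, was at 3.01, 3.38 and 3.35 in AML and at 3.71, 3.31 and 3.83 in CML. Both were under the receptor level on every array. Lgr6 was at 4.92, 4.60 and 4.73 in AML and at 4.90, 4.71 and 5.39 in CML, with CML 3 the highest. All 3 had groups that overlapped. After cyclic loess Lgr4 was at 0.014.

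The secreted antagonists held the lowest adjusted p of the members and Sfrp4, the only member with AML values all above CML values as deposited. Sfrp4 (probe set 17285546, chromosome 13), a secreted Frizzled-related protein that binds Wnts, was at 6.17, 5.73 and 6.20 in AML and at 4.93, 5.38 and 5.68 in CML. The groups did not overlap, though AML 2 and CML 3 were close, and all 6 values were above the receptor level. It was 1.63-fold higher by value, with a log2 change of 0.70 ± 0.24 (SE, 95% interval 0.13 to 1.27), which fell short of the threshold (limma adjusted p = 0.175). The groups overlapped after quantile normalization and after cyclic loess, where the log2 change was 0.59 and 0.61.

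Sfrp5, another secreted Frizzled-related protein, had the lowest adjusted p of the members and was picked for it. Its log2 values were 3.46, 3.37 and 3.38 in AML and 4.07, 3.93 and 4.06 in CML, all under the receptor level. The arrays of each leukemia lay within 0.14 of one another. The log2 change was -0.61 ± 0.13 (SE, 95% interval -0.92 to -0.31; limma adjusted p = 0.0700), and it was -0.44, -0.47 and -0.39 after quantile normalization, median centring and cyclic loess.

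Dkk1 (probe set 17363895, chromosome 19), a secreted inhibitor of Lrp5 and Lrp6 known to restrain bone formation, was at 3.86, 4.01 and 3.35 in AML and at 4.39, 4.43 and 4.97 in CML. The groups did not overlap and all values were under the receptor level, which on CML 3 stood at 5.10. The log2 change was -0.86 ± 0.24 (SE, 95% interval -1.44 to -0.28) and did not pass (limma adjusted p = 0.131). With 1 array left out it ran from -0.99 to -0.67.

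Dkk3, a divergent member of the Dickkopf family, was at 4.66, 4.79 and 4.78 in AML and at 5.50, 4.95 and 5.13 in CML, above the receptor level throughout. Its groups did not overlap, and the log2 change of -0.45 ± 0.18 (SE) did not pass (limma adjusted p = 0.213), nor did the -0.30 found without CML 1. Wif1, which binds Wnt proteins and is known from maturing osteoblasts, was at 5.30, 5.80 and 5.12 in AML and at 5.56, 5.49 and 6.14 in CML. Its groups overlapped (log2 change -0.32 ± 0.25, SE; limma adjusted p = 0.446). The highest Wif1 value was on CML 3, the array with the highest osteoblast markers, and the lowest on AML 3, the array with the lowest.

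Sfrp1 was at 3.27, 3.71 and 3.53 in AML and at 3.63, 3.47 and 4.09 in CML, with groups that overlapped (log2 change -0.22). Frzb, another Frizzled-related antagonist, was at 2.48, 2.50 and 2.55 in AML and at 2.57, 2.49 and 2.52 in CML, which interleave as deposited and lie far under the receptor level. After quantile normalization, median centring, cyclic loess and centring on the receptor genes, its AML values all lay above its CML values, with log2 changes of 0.076, 0.13, 0.095 and 0.15. Dkk2, Dkk4 and Sfrp2 were also dim, at log2 changes of -0.34, -0.19 and -0.43. Sfrp2 had groups that did not overlap (limma adjusted p = 0.195). The second Sfrp2 probe set gave -0.45.

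**Figure D2:**
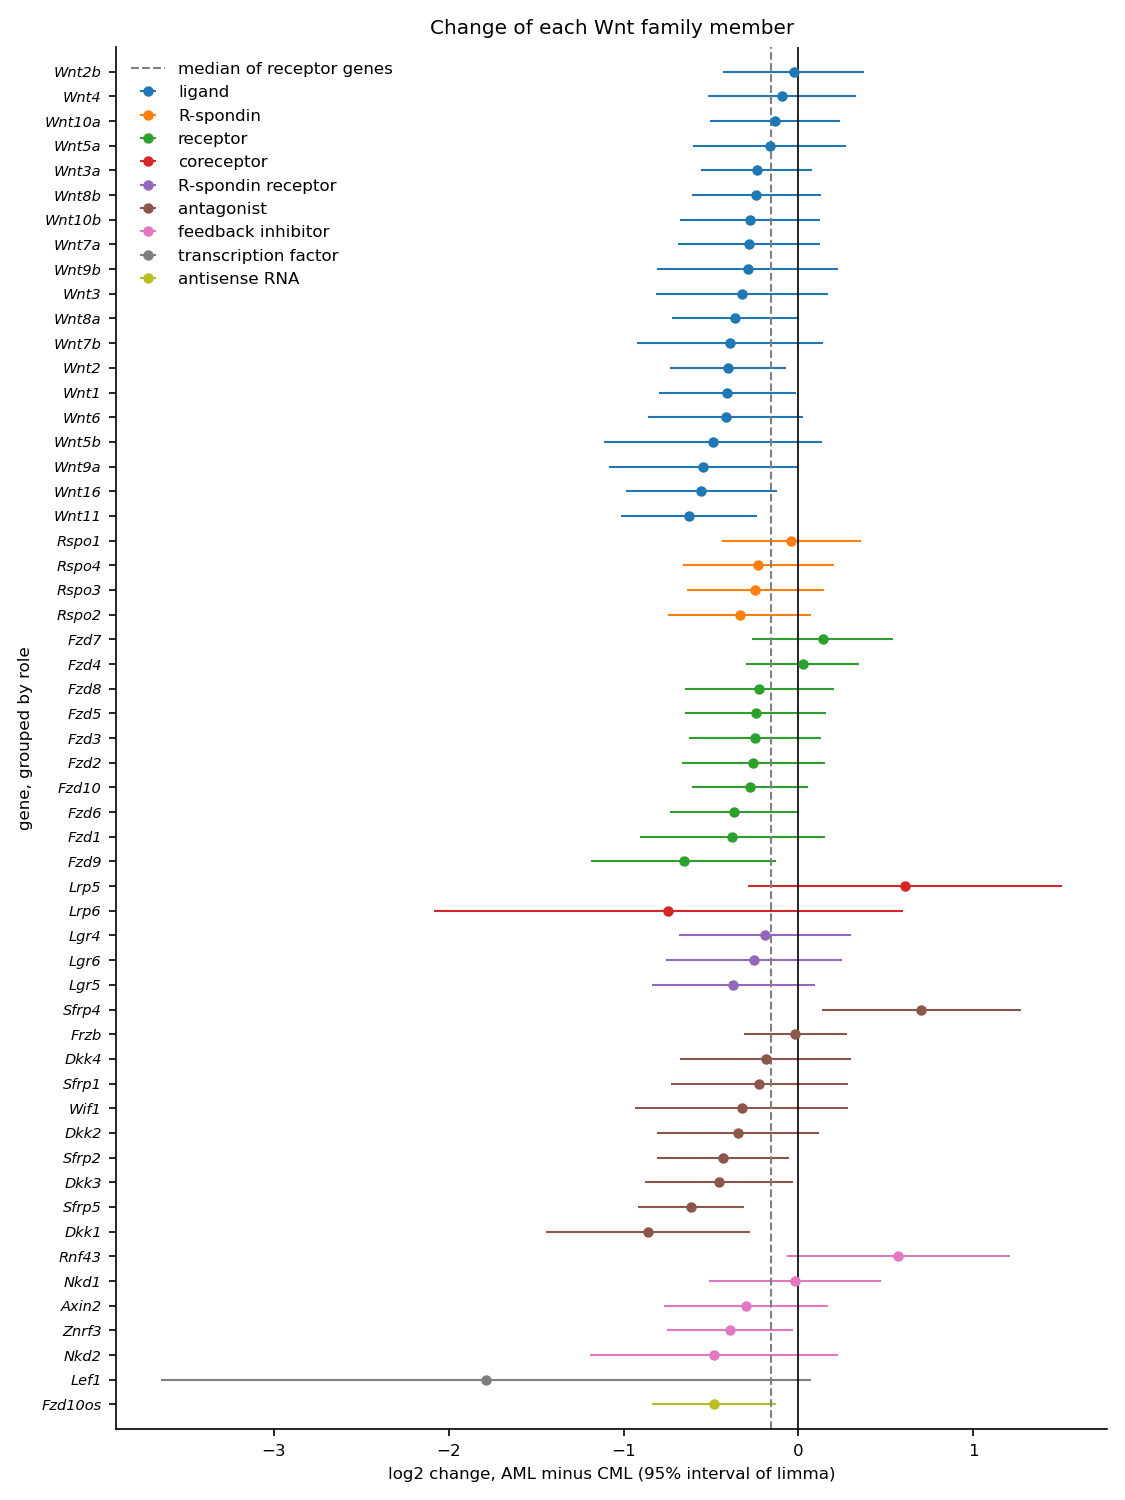
Log2 change, AML minus CML (x axis), of each of the 55 members (y axis, grouped and coloured by role), with the 95% interval of limma from 3 arrays each. The solid line is at 0 and the dashed line at -0.16, the median of the 1390 receptor genes; 50 of the 55 points lie left of 0, and Lef1 and Lrp6 have the widest intervals.

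The feedback inhibitors, which the pathway itself induces, gave no call. Axin2 (probe set 17271197, chromosome 11), a widely used readout of beta-catenin signalling, was at 4.87, 4.87 and 4.69 in AML and at 5.01, 4.84 and 5.48 in CML. The groups overlapped, with CML 3 the highest array, and the log2 change was -0.30 ± 0.20 (SE, 95% interval -0.77 to 0.17; limma adjusted p = 0.374), and -0.12 without CML 3. The other probe set of Axin2 gave -0.20.

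Rnf43 (probe set 17254809, chromosome 11), the ubiquitin ligase that removes Frizzled receptors from the surface, was at 5.14, 5.40 and 4.76 in AML and at 4.79, 4.04 and 4.75 in CML. CML 1 lay just above AML 3, so the groups overlapped as deposited. They did not overlap after quantile normalization, median centring or cyclic loess, where the log2 change was 0.65, 0.72 and 0.68. The limma adjusted p-values there were 0.285, 0.178 and 0.251. As deposited the log2 change was 0.57 ± 0.27 (SE; limma adjusted p = 0.265), and 0.33 without CML 2. Rnf43 was above the receptor level on all 3 AML arrays and on 0 of the CML arrays. That level differed between arrays, at 4.35 on AML 3, 4.92 on CML 1 and 5.10 on CML 3. AML 3, at 4.76, was thus above it while CML 1, at 4.79, and CML 3, at 4.75, were under it. Znrf3, the partner of Rnf43, was at 3.92, 3.84 and 3.97 in AML and at 4.39, 4.08 and 4.43 in CML, all under the receptor level. The Znrf3 groups did not overlap, and the log2 change of -0.39 ± 0.15 (SE) did not pass (limma adjusted p = 0.211).

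Nkd1 and Nkd2, which bind Dishevelled, were under the receptor level throughout. Nkd1 was at 3.01, 2.91 and 3.40 in AML and at 3.37, 2.85 and 3.16 in CML, and Nkd2 at 4.07, 3.74 and 3.25 in AML and at 4.40, 3.65 and 4.44 in CML. Both overlapped between the groups, with log2 changes of -0.02 and -0.48.

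Lef1 (probe set 17402662, chromosome 3), a transcription factor that carries beta-catenin to its targets and is known from developing B and T lymphocytes as well as osteoblasts, had the largest difference by value. It was at 4.41, 5.18 and 4.24 on AML 1, 2 and 3 and at 7.96, 4.70 and 6.53 on CML 1, 2 and 3. CML 1 and CML 3 were high, while CML 2 lay among the AML arrays, so the groups overlapped. Lef1 was under the receptor level on AML 3 and, narrowly, on CML 2. On AML 1, at 4.41 against a level of 4.35, it was just above. The value was 3.45-fold lower in AML, with a log2 change of -1.79 ± 0.78 (SE, 95% interval -3.64 to 0.07), and did not pass (limma adjusted p = 0.242). Without CML 1 the log2 change was -1.003 and without CML 2 it was -2.64, with limma adjusted p-values of 0.346 and 0.0593.

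The array order of Lef1 was also that of the mean of the B lineage markers. From the highest array to the lowest it ran CML 1, CML 3, AML 2, CML 2, AML 1 and AML 3, and the mean log2 value of 8 measured B lineage markers followed the same order. That mean was 3.98, 4.86 and 3.94 on AML 1, 2 and 3 and 7.14, 4.05 and 5.39 on CML 1, 2 and 3. The signalling chain Cd79a was at 3.37, 4.12 and 3.46 in AML and at 8.84, 3.91 and 6.26 in CML, and the B lineage factor Pax5 at 4.30, 5.28 and 4.08 in AML and at 6.99, 4.47 and 5.76 in CML. Cd79b, the partner chain of Cd79a, was at 6.72, 7.14 and 6.25 in AML and at 9.07, 5.12 and 6.88 in CML, so it too was highest on CML 1 but lowest on CML 2, above the receptor level throughout (log2 change -0.32). Single markers did not all follow the order of the mean, and Vpreb1 was highest on CML 3. All 8 markers were lower in AML by value and none passed. Cd79a was under the receptor level on all 3 AML arrays and on CML 2.

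The mean of the T lineage markers spanned less. The mean log2 value of 8 measured T lineage markers lay between 3.79 and 3.96 on the AML arrays and between 3.93 and 4.28 on the CML arrays, and the T cell receptor chains Cd3d, Cd3e and Cd3g were under the receptor level on all 6 arrays. The T lineage adaptor Lat was above it on all 6, at 5.62, 6.09 and 7.83 in AML and at 7.73, 6.004 and 5.86 in CML, an order that Lef1 did not share. Of the B lineage markers, Vpreb1 and Ms4a1 were under it on all 6. The osteoblast mean ran, from the highest array to the lowest, CML 3, CML 1, AML 2, CML 2, AML 1 and AML 3. That is the array order of Lef1 except that CML 3 came before CML 1. The part of B lineage or osteoblast RNA in the Lef1 values was not tested.

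**Figure D3:**
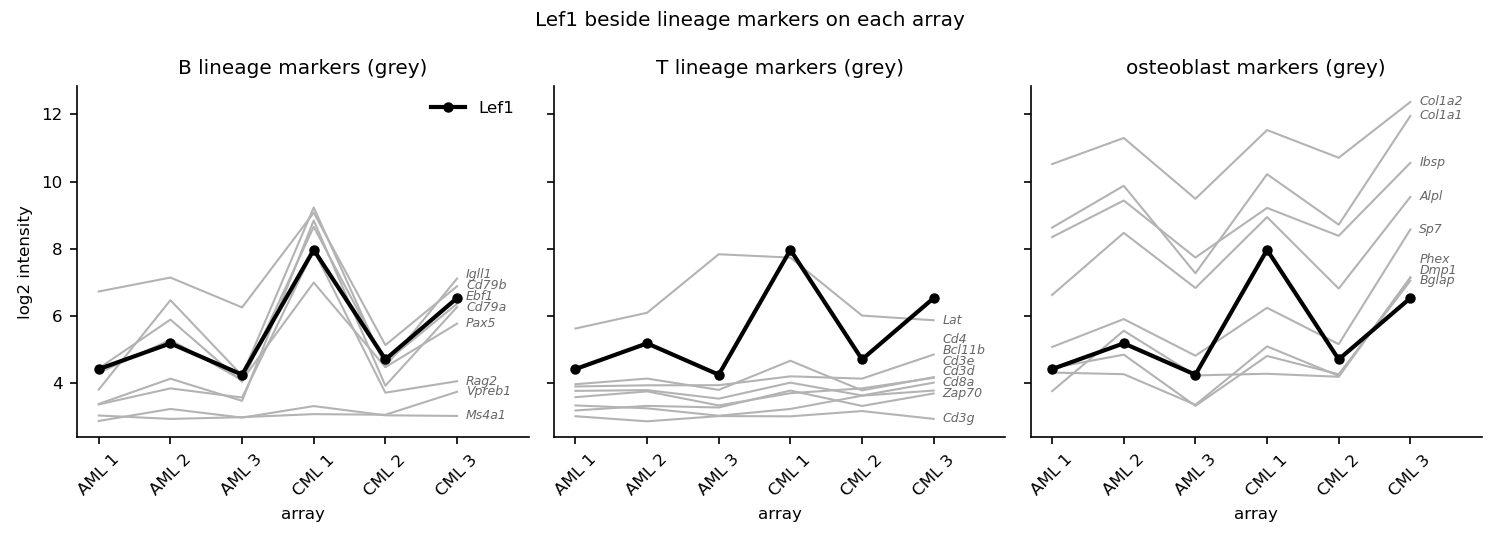
Log2 intensity (y axis) of Lef1 (black) and of single markers (grey) on the 3 AML and 3 CML arrays (x axis); lines join the arrays only to guide the eye. Lef1 and most B lineage markers peak on CML 1 with CML 3 next, most T lineage markers stay low on all arrays, and osteoblast markers peak on CML 3.

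Among themselves the members varied more between the CML arrays, as did all genes. The range over the 3 CML arrays reached 1 log2 unit for Lef1, Lrp5 and Lrp6, up to 3.27 for Lef1, whereas over the 3 AML arrays no member reached it, the widest being 0.93. Of all genes, 8.11% reached it over the AML arrays and 17.9% over the CML arrays. The median range was 0.34 over the AML arrays and 0.41 over the CML arrays, against 0.37 and 0.49 over all genes. Of the 55 members 27 had their highest value on CML 3, or 49.1%, against 26.8% of all genes and 29.8% of the receptor genes. The lowest value was on AML 3 for 23 members, or 41.8%, against 23.0% of all genes and 24.6% of the receptor genes. It was on AML 1 for 18, or 32.7%, against 21.1% of all genes and 36.0% of the receptor genes, and on CML 3 for 0, against 16.3% and 8.35%. CML 3 also had the highest osteoblast mean and AML 3 the lowest. The median log2 value over all probe sets was highest on CML 3 too, at 4.35, and lowest on AML 1, at 4.11. The part of osteoblast RNA or of array scale in these counts was not tested. Without CML 3 the median log2 change of the members was -0.22, and that of single members moved further: Fzd5 was at -0.11, Wif1 at -0.12, Wnt9b at -0.081 and Lgr6 at -0.061.

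Beyond the members, 97 measured genes in 7 lists of the Wnt pathway were examined, and 3 of them, or 3.09%, rose in AML past the threshold, against 1.83% of all genes. None fell. All 3 act inside the cell: Frat1, a GSK3-binding protein that favours beta-catenin, Tle5, a short Groucho-related corepressor also called Aes, and Id2, which binds and holds back helix-loop-helix proteins and was reported as a Wnt target among other inputs. Ctnnb1, which encodes beta-catenin, did not pass, at 6.96, 7.32 and 7.25 in AML and at 7.12, 7.34 and 7.46 in CML (log2 change -0.13, 95% interval -0.53 to 0.27; limma adjusted p = 0.644).

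Frat1 (probe set 17359464) was at 7.03, 6.63 and 7.13 in AML and at 5.70, 5.22 and 5.49 in CML, 2.75-fold higher in AML, with a log2 change of 1.46 ± 0.20 (SE; limma adjusted p = 0.0307). It was the only one of 23 measured genes of the cytoplasmic core to pass. Tle5 (probe set 17235748) was at 7.99, 8.35 and 8.02 in AML and at 7.20, 6.90 and 6.64 in CML, 2.31-fold higher in AML (log2 change 1.21 ± 0.20, SE; limma adjusted p = 0.0423), the only one of 14 nuclear cofactors to pass. Id2, the only one of 17 further targets to pass, was at 8.02, 7.58 and 7.75 in AML and at 6.15, 5.61 and 6.34 in CML, 3.36-fold higher in AML (log2 change 1.75 ± 0.23, SE; limma adjusted p = 0.0298). None of the 3 passed after quantile normalization or cyclic loess, or without AML 1, AML 2, AML 3 or CML 3, and Tle5 did not pass without CML 2 either. With the replicate number as a block their limma adjusted p-values were 0.0993 for Frat1, 0.131 for Tle5 and 0.0986 for Id2, and with the trend and robust options of eBayes Tle5 was at 0.0791. The groups of all 3 lay apart in the same direction as the pan-leukocyte mean and the stem and progenitor mean, whose strongest member Meis1, a homeobox factor of leukemic stem cells, was at 8.36, 8.14 and 8.12 in AML and at 4.62, 4.07 and 4.78 in CML (13.2-fold higher in AML; limma adjusted p = 0.0136). The part of blood cell or progenitor RNA was not tested.

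The other pathway lists held no call. In Wnt secretion, Wls, the carrier that takes Wnt proteins to the surface, was at 7.05, 6.93 and 6.19 in AML and at 6.27, 4.29 and 5.23 in CML (log2 change 1.46 ± 0.50, SE; limma adjusted p = 0.179). AML 3 lay below CML 1. Tmed2, a cargo receptor of the early secretory pathway, stood at 0.45 (limma adjusted p = 0.155), and a second Tmed2 probe set at -0.04. Among 15 planar polarity genes, Rhoa, the small GTPase, was at 11.25, 11.30 and 11.31 in AML and at 10.14, 10.53 and 10.63 in CML, which do not overlap (log2 change 0.85 ± 0.17, SE; limma adjusted p = 0.0623), and the cadherin Celsr3 stood at 0.28.

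The 12 other receptors and coreceptors were all lower in AML by value as deposited. Of all genes 61.7% were lower, and of the olfactory and vomeronasal receptor genes 83.5%. The median log2 change of the 12 was -0.35, against -0.16 for the olfactory and vomeronasal receptor genes. Under the other scalings 9 or 10 of the 12 were lower, against 42.4% to 53.8% of all genes. Ror2, a receptor of Wnt5a, was at 4.99, 5.08 and 5.14 in AML and at 5.63, 5.27 and 6.14 in CML (log2 change -0.61 ± 0.23, SE; limma adjusted p = 0.206), and Ndp, which encodes the Frizzled ligand norrin, stood at -0.35. Of 11 other antagonists 9 were lower by value. Apcdd1, a membrane-bound Wnt inhibitor, stood at -0.76 and Igfbp4, a binding protein of insulin-like growth factors, at 0.75 (limma adjusted p = 0.111 and 0.206). Sost, which encodes the osteocyte inhibitor sclerostin, was at 4.24, 4.52 and 4.38 in AML and at 4.71, 4.62 and 4.71 in CML, which do not overlap. Its value exceeded the receptor level on AML 3 alone (log2 change -0.30; limma adjusted p = 0.259).

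**Figure D4:**
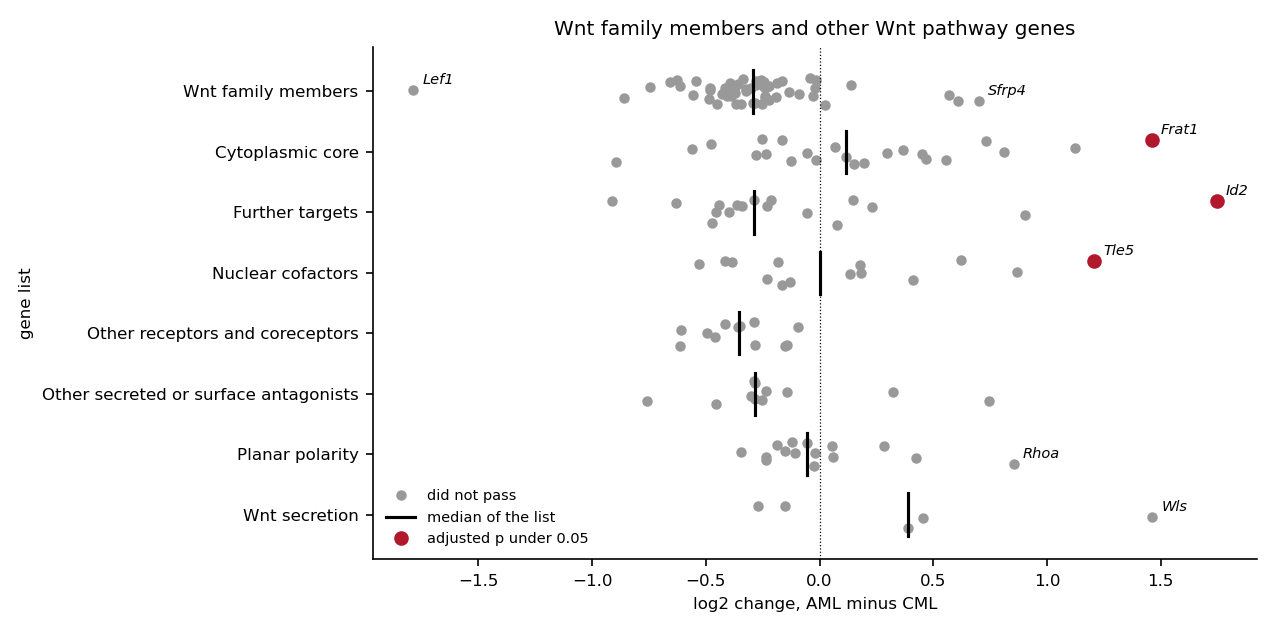
Log2 change, AML minus CML (x axis), of each of the 55 Wnt family members and of 97 other pathway genes by list (y axis); red points passed an adjusted p of 0.05 in limma and black bars are list medians. The 3 red points, Frat1, Tle5 and Id2, lie at 1.46, 1.21 and 1.75, and no family member is red.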

How the data were processed

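RNA of 6 samples was measured on Affymetrix arrays labelled with the whole-transcript kit, per the labels' protocols. The values were deposited as intensity on a linear scale, from 2.71 to 8583 as the values show. Of tools, the submitters' processing notes list lumi and limma. Their normalization and background correction are not given in the sources used here.

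Of 39721 probe sets, 23521 carried 1 gene symbol in the platform annotation, 1814 several and 14386 none. Intensities were floored at 1, which changed 0 values, and log2-transformed, and 22180 genes were each represented by their brightest probe set on average. AML was compared with CML by limma 3.58.1 in R 4.3.3 (lmFit and eBayes, two-sided, Benjamini-Hochberg over all genes, threshold 0.05). The members and lists were chosen with earlier results of these data known. Values on every array are given for the 10 members with the highest means and 18 members named beforehand (Tcf7 among them), 22 measured in all. From each pathway list the genes that passed are given, or else the 2 with the lowest p, with Ctnnb1 and Sost added. Wnt11 and Sfrp5 were added after their values were seen. Members tied to 2 probe sets were Axin2, Lgr5, Lrp6 and Sfrp2. On simulated data of 22180 genes, this comparison called 0% of 50 genes changed by 0.5 log2 units, 22% at 1, 78% at 2 and 98% at 4. The changed genes were drawn from all genes, the noise was independent and normal, and there were 2 false calls. In the real data 423 genes passed, so the cutoff on unadjusted p differs and these shares may not hold for the members. The number of arrays limits the precision. The alternatives were other scalings, filters, probe set rules, variance models, the replicate number as a block and the omission of each array. Centring on the receptor genes was added after the data were seen.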

Additional observations from a re-analysis of the deposited data

How the results depend on the processing

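No family member passed under any of the 17 alternatives, in which limma's lowest adjusted p among members ran from 0.0593 to 0.226, and 0 passed without any 1 array. At an unadjusted p under 0.05, 12 members were lower and 1 higher as deposited, against 4 and 2 after quantile normalization, 5 and 2 after median centring, 3 and 2 after cyclic loess and 3 and 2 after centring on the receptor genes. The count of all genes called, 423 in limma as deposited, was 93 after quantile normalization, 896 after median centring, 64 after cyclic loess, 1045 after centring on the receptor genes and 639 with array weights. With 1 array left out it ran from 0 to 438, with 0 without AML 1, AML 2 or CML 3, where 3048, 3750 and 3533 genes had an unadjusted p under 0.05. The count of other pathway genes called, 3 as deposited, was 0 after quantile normalization, 5 after median centring and after centring on the receptor genes (with Fbxw11 and Rhoa), 0 after cyclic loess, and ran from 0 to 3 with 1 array left out. Tle5 was also lost with the trend and robust options of eBayes, which left 2. Of 360 comparisons of the 22 named members with an alternative, 343 kept the direction and the side of the threshold and 17 reversed in sign. The filters on dim genes, the fit of every probe set, the trend and robust options and the replicate block leave the log2 change itself unchanged. So does the mean of probe sets for members with 1 probe set. Those comparisons could not reverse in sign, so the 343 overstates how stable the direction was. The reversals were in 4 members, whose log2 changes as deposited ran from -0.19 for Lgr4 to -0.02 for Frzb. Frzb, at -0.02 as deposited, was at 0.076, 0.13, 0.095 and 0.15 after quantile normalization, median centring, cyclic loess and centring on the receptor genes, and from -0.036 to 0.0022 with 1 array left out. Nkd1 was at 0.14, 0.13, 0.15 and 0.15 in the same order, and from -0.17 to 0.10 with 1 array left out. Rspo1 was at 0.11 after median centring and 0.13 after centring on the receptor genes, and from -0.14 to 0.034 with 1 array left out. Lgr4 was at 0.014 after cyclic loess. The cause was not tested. The filters on dim genes left 20 and 37 members.

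The AML and CML titles share replicate numbers. Deviations from the group means correlated at 0.24, -0.30 and -0.25 for same-numbered arrays, and between -0.28 and 0.47 for differently numbered arrays. With 3 arrays per group these values cannot show whether the numbers pair the samples. With a replicate block 0 genes were called in limma, 0 of them members and 0 of the other pathway genes, and 3711 had an unadjusted p under 0.05.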
